A study of Mus musculus with 9 samples.

Results

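The 9 genes described here carry the transforming growth factor beta (TGF-beta) signal from ligand to response: the ligands Tgfb1 and Tgfb2, the receptors Tgfbr1 and Tgfbr2, the signal transducers Smad2, Smad3 and Smad7, and the profibrotic targets Ctgf and Tgfbi. They were chosen by symbol from the 24421 genes listed for proximal tubular epithelial cells of diabetic mice, all 9 were found, and all 9 passed the filter on low counts. In none of the 3 comparisons between groups did any of them pass the thresholds of the study. What the data hold is the level of each gene in each mouse, the size of the differences that 3 mice per group leave possible, and the mice on which the larger apparent differences rest.

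RNA was measured in 9 mice, 3 in each of 3 groups. db/db mice are homozygous for a mutation of the leptin receptor and become obese and diabetic, db/m mice are their heterozygous, nondiabetic controls, and db/db-dapa mice are db/db mice that drank dapagliflozin, an inhibitor of the glucose transporter SGLT2, at 1.5 mg/kg/day for 8 weeks. The db/db-dapa mice are also called treated mice here. The labels give the strain as C57BL/6. Every mouse, controls included, carried CreERT2 in the SLC34a1 locus (SLC34a1GCE) and the R26tdTomato reporter. All were 8 weeks old when they were given 5 injections of 3 mg tamoxifen, which starts the reporter, and tdTomato-positive cells were later sorted from the kidney. Slc34a1 encodes a phosphate transporter of the proximal tubule, so the reporter follows the cells in which that locus was active. The labels call the tissue kidney and do not mention the sort.

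TGF-beta ligands are secreted in a latent form, held in the matrix until they are released. The active ligand joins the type II receptor to the type I receptor, which phosphorylates Smad2 and Smad3. These enter the nucleus with Smad4 and raise the transcription of matrix genes and of their own inhibitor, Smad7. In the kidney the pathway is known for its part in fibrosis, and the cells of the proximal tubule both make ligand and respond to it.

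Counts per library ranged from 2733349 (db/db replicate 1) to 9033123 (db/db-dapa replicate 3), and levels are given as CPM, counts scaled to a library size common to all mice. The lowest level that a mouse could show above 3 counts lay between 0.339 and 1.02 CPM. The 10 markers of the proximal tubule summed to 13400 to 14560 CPM in db/m, 16180 to 20560 in db/db and 17400 to 21850 in db/db-dapa mice, so the db/m mice lay below all diabetic mice. Fitted log2 fold changes were above 0 for 8 of the 10 in db/db and for 10 of 10 in treated mice against db/m mice, with medians of 0.39 and 0.46. Markers of other cells were lower but were not absent, and they differed between mice of the same group: 37.7 to 185 CPM for 6 endothelial genes, 28.6 to 101 for 6 macrophage genes, 4.64 to 130 for 4 podocyte genes and 26.2 to 66.3 for 6 genes of fibroblasts and pericytes. Most of the fibroblast and pericyte sum was the single gene Cspg4, at 18.4 to 60.9 CPM. In each group 1 or 2 of these 6 genes were at 0 in some mouse. The markers of thick ascending limb and distal tubule summed to 741 to 2375 CPM, those of the collecting duct to 123 to 468 in db/m, 146 to 316 in db/db and 81.9 to 155 in db/db-dapa mice, erythroid genes to 38.2 to 1869 and lymphocyte genes to 0.222 to 3.20. Some of the 7 erythroid genes had identical values, so their sum counts the same level more than once. In treated against db/m mice all 5 collecting duct genes had fitted values below 0, with a median of -1.26. None of the marker genes differed between groups at an adjusted p under 0.1. A lower level in such a sample can reflect fewer cells of a type or less RNA per cell, and these cannot be told apart. In each group 1 mouse correlated less with the other 2 than these did with each other (log2 scale, across genes, which are not independent): db/m replicate 3 (0.976 and 0.97 against 0.986), db/db replicate 3 (0.955 and 0.964 against 0.974) and db/db-dapa replicate 1 (0.982 and 0.977 against 0.992). The correlations of db/db replicate 3 were the lowest.

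Differences were tested with edgeR's quasi-likelihood test across 15583 genes, and a gene was called when its adjusted p (Benjamini-Hochberg) was under 0.1 and its fold was over 2 in either direction, a log2 fold change beyond 1. Of the 9 genes, 0 were called between db/db and db/m mice, 0 between treated and db/db mice and 0 between treated and db/m mice. Of all genes, 1.26%, 0% and 1.05% were called in these comparisons, so 0 calls among 9 genes lies near the background. At an unadjusted p under 0.05 there were 2 (Smad3 higher, Tgfb2 lower), 1 (Tgfbi lower) and 2 (Smad3 higher, Tgfb2 lower) of the 9, beside 13.7%, 5.19% and 18.2% of all genes. DESeq2 called 0 of the 9 in each comparison. In a test for any difference among the 3 groups, 0 of the 9 had an adjusted p under 0.1 (1.3% of all genes did), and 2, Smad3 and Tgfb2, had an unadjusted p under 0.05 (14.1% of all genes did). The median log2 fold change of the 9 genes was 0.04, 0.12 and 0.14 in the 3 comparisons, and that of all genes tested was 0.02, -0.01 and -0.02. The db/db mice enter the first and second comparison, and the db/m and db/db-dapa mice also enter 2 each, so the comparisons are not independent of one another.

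**Figure D1:**
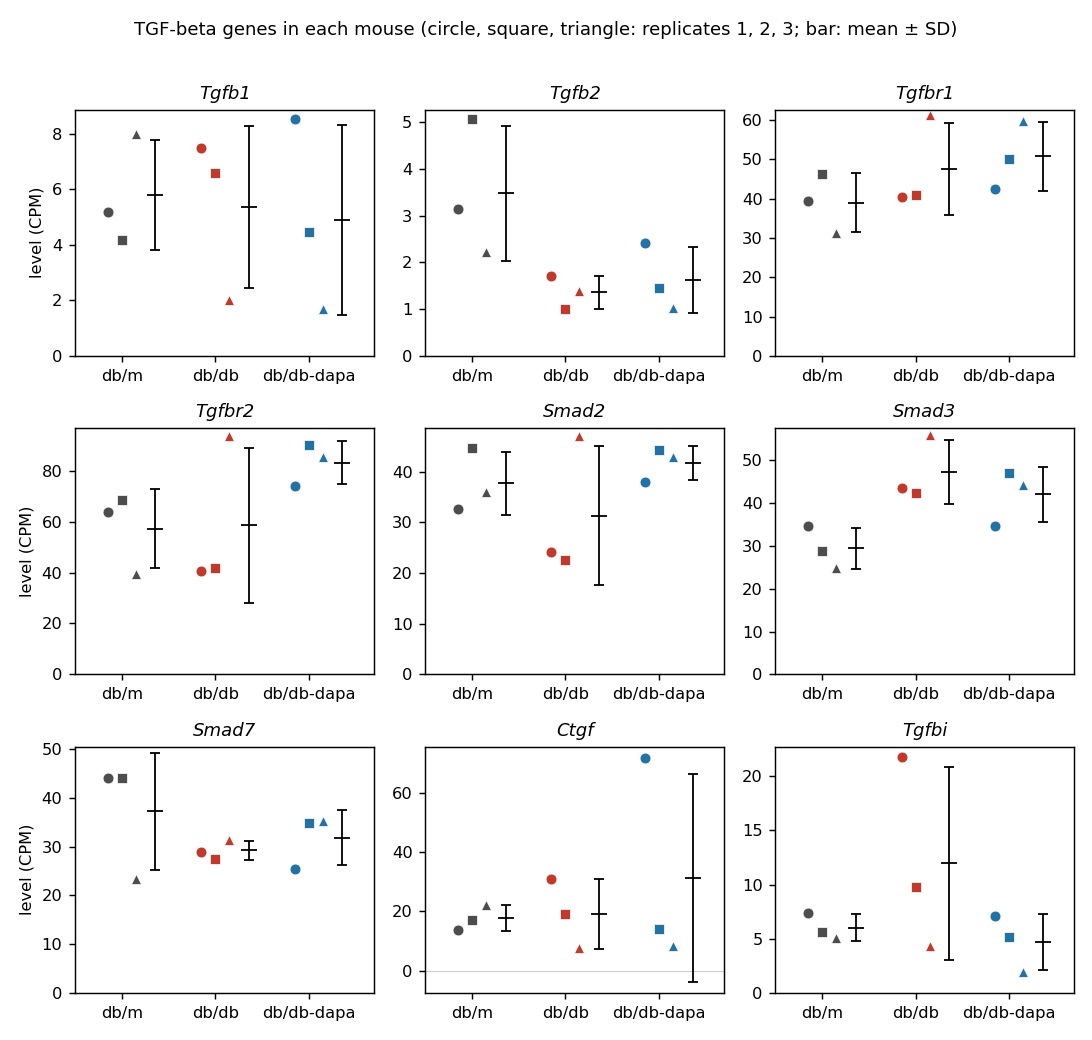
Level of each of the 9 genes in each mouse, in CPM (vertical axis, linear, a separate scale for each gene), by group (horizontal axis). Symbols stand for replicates 1, 2 and 3 and the bar for the mean with the SD (n = 3). Smad3 in db/db mice lies above all db/m mice, while Ctgf in db/db-dapa mice spans 8.26 to 71.7 CPM.

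Smad3 gave the smallest p of the 9 genes. It encodes the transducer that binds DNA directly and on which many profibrotic target genes depend. It lies on chromosome 9 from 63646767 to 63757994 (GRCm38, minus strand). Its level was 34.5, 28.8 and 24.9 CPM in db/m mice, 43.5, 42.2 and 55.8 in db/db mice and 34.6, 47.0 and 44.2 in db/db-dapa mice. All 3 db/db mice lay above all 3 db/m mice, and so did all 3 db/db-dapa mice, though db/db-dapa replicate 1 did so by a small margin. The means were 29.4 ± 4.83, 47.2 ± 7.52 and 42.0 ± 6.49 CPM (SD, n = 3 each). The log2 fold change between db/db and db/m mice was 0.68 (standard error, SE, 0.197, 95% interval 0.25 to 1.12, edgeR adjusted p = 0.165), or 1.61-fold. Against db/m mice, treated mice gave 0.51 (SE 0.196, edgeR adjusted p = 0.227), and between treated and db/db mice the value was -0.17 (95% interval -0.60 to 0.25, edgeR adjusted p = 0.882). The last interval includes 0. Without db/db replicate 3, the mouse with the highest level, the difference between db/db and db/m mice was 0.53. With DESeq2 its adjusted p was 0.0533, and with library totals in place of the scaled library sizes 0.0979, both past 0.1 but with a fold below 2. The summed proximal tubule markers were also higher in both diabetic groups than in db/m mice, and their part in the differences of Smad3 from db/m mice was not tested.

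Tgfb2, a ligand of the pathway, was the only other gene of the 9 with groups that did not overlap between db/db and db/m mice. The gene lies on chromosome 1 from 186622792 to 186705989 (GRCm38, minus strand). It was found at 3.15, 5.06 and 2.22 CPM in db/m mice, 1.70, 1.0 and 1.39 in db/db mice and 2.41, 1.44 and 1.02 in db/db-dapa mice. These levels rest on 20, 29 and 10 counts in db/m, 5, 5 and 11 in db/db and 17, 11 and 9 in db/db-dapa mice, all above 3 counts. All 3 db/db mice were below the db/m mice, while db/db-dapa replicate 1 overlapped with them. Tgfb2 had a log2 fold change of -1.37 between db/db and db/m mice (SE 0.511, 95% interval -2.49 to -0.25, edgeR adjusted p = 0.264). Treated mice against db/m mice gave -1.11 (SE 0.48, edgeR adjusted p = 0.26), and between treated and db/db mice the value was 0.26 (95% interval -0.88 to 1.41, edgeR adjusted p = 0.93). With limma and a weight for each mouse, Tgfb2 passed the thresholds between treated and db/m mice, with a log2 fold change of -1.28 and an adjusted p of 0.0282. With these weights 10.4% of all genes were called in that comparison, beside 1.05% with edgeR. Exons of Tgfb2 share 124 bases with Gm29491, an antisense gene, and whether the counting used strand is not stated, so reads of the pair may not have been told apart.

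Groups without overlap were counted for all genes as a measure of how often 3 mice separate from 3 others. Between db/db and db/m mice, 2 of the 9 genes had no overlap, Smad3 and Tgfb2, and so did 16.4% of all genes. Treated and db/db mice were separated in 0 of the 9, beside 10.2% of all genes. Between treated and db/m mice there were 2, Smad3 and Tgfbr2, both higher, beside 28.1% of all genes. The shares of the 9 genes were thus near those of the background.

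The promoters of Tgfb2, Smad3 and Tgfbi are shown because these 3 genes had an unadjusted p under 0.05 in at least 1 comparison. The sequences are RefSeq's (GRCm38.p6), given 5′ to 3′ on the strand of the gene up to its annotated start, with matches to the Smad box, CAGAC or its reverse complement GTCTG, in capitals.
Tgfb2, chr1:186705990-186706239, minus strand: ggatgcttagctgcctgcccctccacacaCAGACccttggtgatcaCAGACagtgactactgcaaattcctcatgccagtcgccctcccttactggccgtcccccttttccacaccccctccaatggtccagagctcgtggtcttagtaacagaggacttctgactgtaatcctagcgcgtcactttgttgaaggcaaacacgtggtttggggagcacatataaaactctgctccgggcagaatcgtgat
Smad3, chr9:63757995-63758244, minus strand: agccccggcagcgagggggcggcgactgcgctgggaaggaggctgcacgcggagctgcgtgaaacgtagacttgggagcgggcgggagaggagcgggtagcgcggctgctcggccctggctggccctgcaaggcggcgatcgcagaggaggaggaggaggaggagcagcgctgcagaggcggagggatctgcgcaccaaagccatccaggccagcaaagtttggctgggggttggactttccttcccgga
Tgfbi, chr13:56609336-56609522, plus strand: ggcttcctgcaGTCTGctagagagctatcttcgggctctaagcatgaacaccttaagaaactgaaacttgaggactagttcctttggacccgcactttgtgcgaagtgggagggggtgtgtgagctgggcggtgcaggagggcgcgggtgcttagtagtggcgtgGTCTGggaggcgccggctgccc

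Tgfb2 and Tgfbi each held 2 Smad boxes, and Smad3 held 0. Of 32851 promoters, 42.2% held the Smad box in a window of 250 bases and 34.2% in a window of 187 bases, the length before the annotated start of Tgfbi, so a match is common. None of the 3 held the palindromic pair GTCTAGAC, the AP-1 motif TGANTCA or the TEAD motif GGAATG (or CATTCC) on either strand, which were found in 0.167%, 6.75% and 12.6% of promoters in 250 bases. Smad3, with 69.2% G and C, has a promoter richer in these bases than Tgfbi (59.4%) and Tgfb2 (53.6%). The letters are a description of the windows, and the data do not bear on binding.

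Tgfb1, the ligand most studied in renal fibrosis, lies on chromosome 7 from 25687002 to 25705077 (GRCm38, plus strand). Its level was 5.20, 4.19 and 8.0 CPM in db/m mice, 7.48, 6.60 and 2.02 in db/db mice and 8.52, 4.46 and 1.70 in db/db-dapa mice. The 3 groups overlapped throughout, and replicate 3 was the lowest in both diabetic groups but the highest in db/m mice. For Tgfb1 the log2 fold change was -0.16 between db/db and db/m mice (95% interval -1.47 to 1.16, edgeR adjusted p = 0.93), -0.09 between treated and db/db mice (95% interval -1.40 to 1.22, edgeR adjusted p = 0.982) and -0.25 between treated and db/m mice (95% interval -1.52 to 1.03, edgeR adjusted p = 0.843). The intervals include a change of 2-fold in both directions, so differences of that size could not be told from none with these mice. Leaving out db/db replicate 3 gave 0.28 for the first difference, and leaving out db/db-dapa replicate 3 gave 0.34 for the second. Tgfb1 was lowest in the mice in which the endothelial markers were also low: these summed to 49.1, 47.8 and 124 CPM in db/m, 165, 185 and 53.1 in db/db and 167, 46.1 and 37.7 in db/db-dapa mice. The 4 mice with endothelial sums over 100 CPM were the 4 with Tgfb1 over 6 CPM. All 6 endothelial genes were above 0 in every mouse. Their part in the level of Tgfb1 was not tested.

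Tgfbr2 encodes the type II receptor, which binds the ligand first, and lies on chromosome 9 from 116084293 to 116175360 (GRCm38, minus strand). It was found at 63.8, 68.4 and 39.6 CPM in db/m mice, 40.5, 41.6 and 93.5 in db/db mice and 74.0, 90.2 and 85.5 in db/db-dapa mice. All 3 db/db-dapa mice were above the db/m mice, and they were also above db/db replicates 1 and 2 but not above replicate 3, the highest of the 9 mice. Fitted as a log2 fold change, Tgfbr2 gave 0.04 between db/db and db/m (SE 0.317, edgeR adjusted p = 0.969), 0.49 between treated and db/db mice (SE 0.315, edgeR adjusted p = 0.854) and 0.54 between treated and db/m mice (SE 0.315, edgeR adjusted p = 0.366). Without db/db replicate 3, Tgfbr2 passed the thresholds between treated and db/db mice, with a log2 fold change of 1.03 and an edgeR adjusted p of 0.0833, and the difference between db/db and db/m mice became -0.49. Of all genes, 1.75% were called between treated and db/db mice without replicate 3, beside 0% with it. Whether this receptor was called thus depended on that single mouse. The part of the proximal tubule markers in its difference between treated and db/m mice was not tested.

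Tgfbr1 encodes the type I receptor, the kinase that phosphorylates Smad2 and Smad3, and lies on chromosome 4 from 47353222 to 47414931 (GRCm38, plus strand). Its level was 39.4, 46.2 and 31.3 CPM in db/m mice, 40.5, 41.0 and 61.1 in db/db mice and 42.5, 50.02 and 59.8 in db/db-dapa mice. Every pair of groups overlapped. Tgfbr1 had a log2 fold change of 0.29 (SE 0.224, 95% interval -0.20 to 0.78, edgeR adjusted p = 0.602) between db/db and db/m, 0.09 (95% interval -0.40 to 0.57, edgeR adjusted p = 0.949) between treated and db/db mice and 0.38 (95% interval -0.11 to 0.87, edgeR adjusted p = 0.365) between treated and db/m mice. None of the 3 intervals reached a 2-fold change. Without db/db replicate 3, the first value was 0.05. db/db replicate 3 was the highest mouse for Tgfbr1 as well as for Tgfbr2, Smad2 and Smad3.

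**Figure D2:**
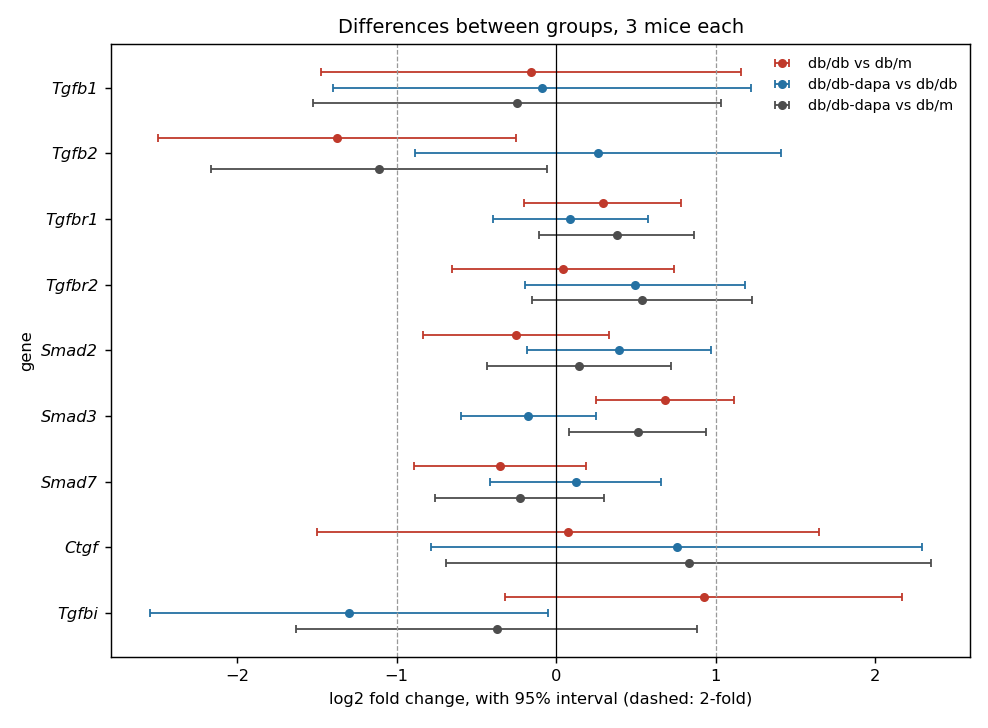
Log2 fold change (horizontal axis) of the 9 genes (vertical axis) in the 3 comparisons, with the 95% interval of edgeR's quasi-likelihood fit (3 mice in each group) and dashed lines at a 2-fold change. The intervals of Tgfb1, Ctgf and Tgfbi are the widest, while those of Tgfbr1, Smad3 and Smad7 are the narrowest, and the interval of Smad3 lies above 0 in both comparisons with db/m mice.

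Smad2, the other transducer that the receptor activates, lies on chromosome 18 from 76241580 to 76310963 (GRCm38, plus strand). It was found at 32.6, 44.7 and 36 CPM in db/m mice, 24.1, 22.6 and 47.1 in db/db mice and 37.9, 44.2 and 42.9 in db/db-dapa mice. db/db replicates 1 and 2 were the lowest of the 9 mice and replicate 3 the highest. For Smad2 the log2 fold change was -0.25 (SE 0.266, edgeR adjusted p = 0.717) between db/db and db/m, 0.39 (SE 0.264, edgeR adjusted p = 0.854) between treated and db/db mice and 0.14 (SE 0.262, edgeR adjusted p = 0.787) between treated and db/m mice. Without db/db replicate 3, the first and second values were -0.70 and 0.85, the latter with an edgeR adjusted p of 0.0853 and a fold below 2.

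Because the fitted differences of Smad2 and Smad3 between db/db and db/m mice had opposite signs, their counts were set against each other within each mouse, a choice made after the values were seen. The ratio of Smad3 to Smad2 counts was 1.06, 0.645 and 0.691 in db/m mice, 1.80, 1.87 and 1.18 in db/db mice and 0.914, 1.06 and 1.03 in db/db-dapa mice. All 3 db/db mice lay above all 6 others, and db/db-dapa mice overlapped with db/m mice. A ratio within a library does not depend on library size, but it compares genes of different length and shows only that the pair moved unequally. Among the 36 pairs of the 9 genes, 11, 5 and 6 had ratios without overlap in the 3 comparisons, beside 17.1%, 10.5% and 28.6% of all pairs of the 13493 tested genes that were above 0 in every mouse. The db/db mice were apart from both other groups in 3 of the 36, Smad3 to Smad2, Smad3 to Smad7 and Tgfb1 to Tgfbi, and in 3.53% of all pairs. Pairs share genes and are not independent. Since it was chosen from 36 pairs, the ratio was given no test.

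**Figure D3:**
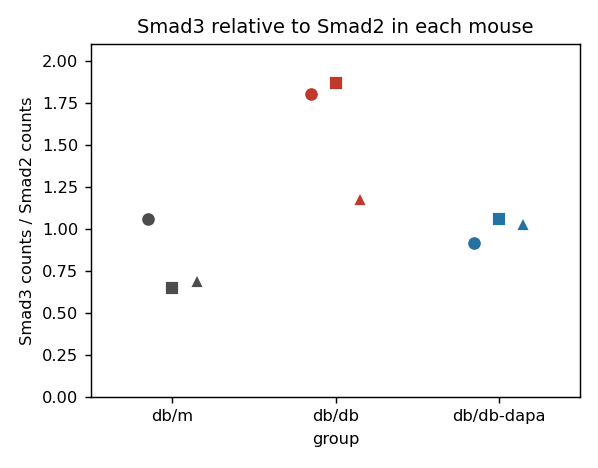
Ratio of Smad3 to Smad2 counts in each mouse (vertical axis, linear, from 0) by group (horizontal axis), with symbols for replicates 1, 2 and 3. The lowest db/db mouse, replicate 3 at 1.18, lies above the highest of the other 6 mice at 1.06.

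Smad7, the inhibitory Smad that the pathway itself induces, lies on chromosome 18 from 75367529 to 75395935 (GRCm38, plus strand). Its level was 44.1, 44.2 and 23.3 CPM in db/m mice, 28.9, 27.4 and 31.3 in db/db mice and 25.4, 34.9 and 35.2 in db/db-dapa mice. The diabetic mice of both groups fell between the lowest and the highest db/m mouse. Fitted as a log2 fold change, Smad7 gave -0.35 (95% interval -0.89 to 0.19, edgeR adjusted p = 0.567) between db/db and db/m, 0.12 (95% interval -0.41 to 0.66, edgeR adjusted p = 0.93) between treated and db/db mice and -0.23 (95% interval -0.76 to 0.30, edgeR adjusted p = 0.619) between treated and db/m mice. The direction was the same with each mouse left out in turn in all 3 comparisons, and no interval reached a 2-fold change. Smad7 had the smallest spread of any of the 9 genes within db/db mice, with an SD of 6.77% of the mean.

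Ctgf encodes connective tissue growth factor, a matricellular protein used as a readout of TGF-beta activity, and is named Ccn2 in the annotation. It lies on chromosome 10 from 24595442 to 24598683 (GRCm38, plus strand). Its level was 13.5, 17.1 and 22.2 CPM in db/m mice, 30.9, 19 and 7.45 in db/db mice and 71.7, 14.1 and 8.26 in db/db-dapa mice. A single mouse, db/db-dapa replicate 1 with 505 counts, set the mean of its group, and the other db/db-dapa mice were within the range of the db/db mice. Ctgf had a log2 fold change of 0.07 (SE 0.717, edgeR adjusted p = 0.977) between db/db and db/m, 0.76 (SE 0.701, edgeR adjusted p = 0.858) between treated and db/db mice and 0.83 (SE 0.694, edgeR adjusted p = 0.519) between treated and db/m mice. Without that mouse, the second and the last value turned to -0.72 and -0.65.

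The podocyte markers were high in the same mouse. They summed to 130 CPM in db/db-dapa replicate 1, against 11.3 and 4.64 in the other db/db-dapa mice, 10.9, 16.9 and 16.4 in db/m and 15.6, 31.4 and 9.47 in db/db mice. Nphs1, which encodes nephrin of the slit diaphragm and is not made by the tubule, was at 28.4 CPM in that mouse and at no more than 5.20 CPM in any other. All 4 podocyte genes were above 0 in every mouse. The other marker lists outside the proximal tubule were also highest of the db/db-dapa group in replicate 1. Endothelial markers summed to 167 CPM in it, against 46.1 and 37.7 in the other db/db-dapa mice. In db/db mice they summed to 165, 185 and 53.1 CPM. Podocytes are known to express Ctgf, and the part of podocytes or of other cells in its level was not tested. Exons of Ctgf also share 665 bases with Gm15270, a gene on the opposite strand, and whether the counting used strand is not stated.

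Tgfbi encodes a secreted matrix protein named for its induction by TGF-beta and lies on chromosome 13 from 56609523 to 56639562 (GRCm38, plus strand). It was found at 7.40, 5.58 and 5.11 CPM in db/m mice, 21.8, 9.80 and 4.30 in db/db mice and 7.10, 5.12 and 1.92 in db/db-dapa mice. Replicates 1 and 2 of the db/db mice were the highest of the 9, replicate 3 was within the range of the db/db-dapa mice, and the groups overlapped in every comparison. For Tgfbi the log2 fold change was 0.92 (SE 0.569, edgeR adjusted p = 0.512) between db/db and db/m, -1.30 (SE 0.569, 95% interval -2.54 to -0.05, edgeR adjusted p = 0.854) between treated and db/db mice and -0.37 (SE 0.572, edgeR adjusted p = 0.739) between treated and db/m mice. The difference between treated and untreated db/db mice was the largest of the 9 genes in that comparison and lay between -1.71 and -0.57 with each mouse left out in turn. Without db/db replicate 1 the difference between db/db and db/m mice was 0.20, and without db/db replicate 3 it was 1.34. Between treated and untreated db/db mice, the lower size, -0.57, was without db/db replicate 1, and the larger, -1.71, without db/db replicate 3.

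In each group the order of the mice by Tgfbi was also their order by macrophage markers. These summed to 92.0, 68.2 and 42.2 CPM in db/m, 101, 81.6 and 40.8 in db/db and 61.9, 44.9 and 28.6 in db/db-dapa mice. Other sums also fell in this order within a group. In db/db-dapa mice these included the endothelial, podocyte, fibroblast and pericyte, lymphocyte and erythroid sums. In db/db mice the collecting duct sum did so, and in db/m mice the lymphocyte sum. Of the 6 macrophage genes, all 6 had fitted log2 fold changes below 0 between treated and db/db mice, with a median of -0.55, and 0 had an adjusted p under 0.1. This direction was shared with the markers of endothelium (6 of 6 genes, median -0.53), lymphocytes (5 of 5, -1.82), thick ascending limb and distal tubule (5 of 5, -0.49), collecting duct (5 of 5, -0.76) and erythroid cells (7 of 7, -1.95). Some of the 7 erythroid genes had identical values, so they are not 7 separate measurements. The erythroid sum was 1869 CPM in db/db replicate 2, against 156 and 126 in the other db/db mice. The other lists went the other way, with most fitted values above 0. These were podocytes (4 of 4 genes, median 1.4), fibroblasts and pericytes (4 of 5 tested, 0.32) and proximal tubule (7 of 10, 0.18). Of the treated mice, only replicate 1 had a podocyte sum (130 CPM) above those of all db/db mice (15.6, 31.4 and 9.47). The other treated mice were at 11.3 and 4.64 CPM. Among the fibroblast and pericyte genes, Dcn was lower, with a log2 fold change of -1.18 and few counts. All 6 macrophage genes were above 0 in every mouse, with Adgre1, which encodes the macrophage antigen F4/80, the lowest, at 0.339 to 3.55 CPM. Macrophages are known to express Tgfbi, and their part in its level was not tested.

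**Figure D4:**
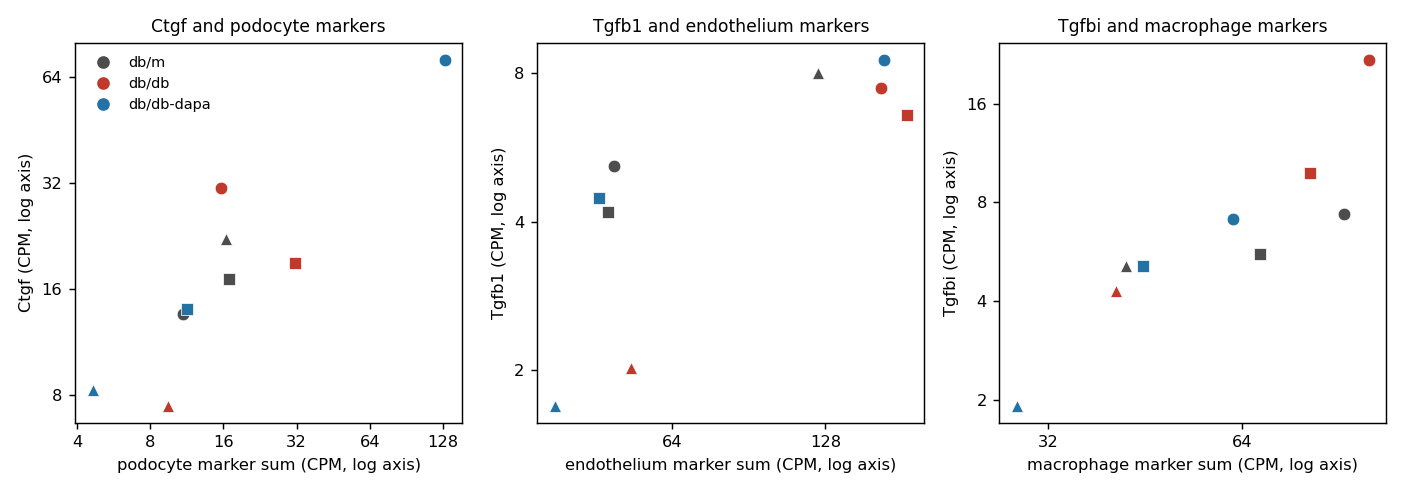
Level of Ctgf, Tgfb1 and Tgfbi (vertical axes, CPM, log scale) in each mouse against the summed level of podocyte, endothelial and macrophage markers (horizontal axes, CPM, log scale); colors stand for groups and circles, squares and triangles for replicates 1, 2 and 3. The pairs were chosen after the values were seen. db/db-dapa replicate 1 is the highest mouse for both podocyte markers (130 CPM) and Ctgf (71.7 CPM). Its endothelial sum (167 CPM) is also the highest of its group.

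To compare genes with one another, the level was divided by the length of the longest coding transcript. Averaged over the 9 mice, Ctgf was at 9.11 CPM per kb, Tgfbr2 at 8.20, Tgfbr1 at 7.95, Smad3 at 7.76, Smad7 at 7.66, Smad2 at 4.56, Tgfbi at 2.79, Tgfb1 at 2.46 and Tgfb2 at 0.421. The first 5 did not differ beyond their spread over mice, since Ctgf ranged from 2.99 to 28.8 CPM per kb and the other 4 had medians of 7.32 to 8.45. Smad2 (2.79 to 5.83) lay below these 4 by its median of 4.69, though its range overlapped with theirs. Tgfbi (0.708 to 8.01) and Tgfb1 (0.780 to 3.92) did not differ beyond their spread. Tgfb2, at 0.196 to 0.989 CPM per kb, was the lowest by mean. By their means, the receptors and Smads were thus higher per length than the ligands.

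The genes most alike in pattern to each of the 9 were sought by Pearson's r of log2(CPM + 1) over the 9 mice, which share groups and library depth, and are given as a description. Those of Ctgf were Cald1 (r = 0.985), Sema3g (0.984) and Mcam (0.979), and those of Tgfb1 were Ctsz (0.967), Tm4sf1 (0.957) and Nxn (0.957). Genes alike to Tgfb2 included Slc30a2 (0.939) and Cp (0.934). Tgfbi was most like Cadm4 (0.976), Lrrc8c (0.971) and Sh2b2 (0.969). For Tgfbr1 they were Ncoa4 (0.995), Uty (0.99) and Cachd1 (0.989), and for Tgfbr2 Sel1l3 (0.987), Eif2ak1 (0.984) and H6pd (0.983). For Smad3 they were Bcl9 (0.978), Zfp395 (0.978) and Smg6 (0.975), for Smad2 Gnpat (0.978), E430025E21Rik (0.975) and Atmin (0.973) and for Smad7 Adcy10 (0.952), Zfp655 (0.949) and Prss41 (0.949). Among the 9 genes themselves, Tgfb1 ran with Ctgf (r = 0.852) and against Tgfbr1 (r = -0.887), and Tgfbr2 ran with Smad2 (0.827) and Tgfbr1 (0.822).

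A further 91 genes of the pathway were examined in 7 lists, and 88 of them passed the filter. Inhba, Timp1 and Postn did not, with at most 1 count in any mouse. Between db/db and db/m mice 0 of the 88 were called by edgeR, and 7 were higher and 4 lower at an unadjusted p under 0.05. Between treated and db/db mice 0 were called, with 1 higher and 3 lower at an unadjusted p under 0.05. In treated against db/m mice 1 was called, with 10 higher and 4 lower at an unadjusted p under 0.05. Of all genes, 1.26%, 0% and 1.05% were called, and 13.7%, 5.19% and 18.2% had an unadjusted p under 0.05. The median log2 fold changes of the 88 genes were 0.12, 0.06 and 0.08. The counts of calls by DESeq2 were 1, 0 and 3, beside 2.33%, 0.0834% and 3.25% of all genes.

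The gene called was Acvr2b, which encodes a type II receptor for activins. It was found at 10.2, 5.93 and 11.3 CPM in db/m mice, 4.76, 4.20 and 4.04 in db/db mice and 3.41, 3.81 and 3.05 in db/db-dapa mice. All diabetic mice lay below all db/m mice, and all db/db-dapa mice lay below all db/db mice. The log2 fold change between treated and db/m mice was -1.41 (SE 0.317, edgeR adjusted p = 0.0873), and between db/db and db/m mice -1.09 (SE 0.322, edgeR adjusted p = 0.175). The call between treated and db/m mice was lost with limma on log2(CPM + 1) or log2(CPM + 0.1) (adjusted p = 0.103 and 0.111) and with the replicate numbers as a block (edgeR adjusted p = 0.122). It was also lost without db/m replicate 1 or 3, without db/db replicate 2 and without any 1 of the 3 db/db-dapa mice, where the log2 fold change lay between -1.49 and -1.24. Over all alternatives the adjusted p ranged from 0.00576 to 0.364. In the same list, Acvr1b, which encodes a type I activin receptor, was at 12.3, 16.8 and 7.55 CPM in db/m mice, 17.0, 15.6 and 50.4 in db/db and 18.5, 40.2 and 35.4 in db/db-dapa mice. Its log2 fold change between treated and db/m mice was 1.35 (edgeR adjusted p = 0.205), and between db/db and db/m mice it was 1.20 with all mice and 0.39 without db/db replicate 3. Tgfbr3, the coreceptor betaglycan, was at 16.7, 11.4 and 18.6 CPM in db/db mice and 9.09, 8.67 and 11.2 in db/db-dapa mice, a log2 fold change of -0.69 (edgeR adjusted p = 0.854).

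Among regulators of the signal, Pmepa1, a membrane protein that is induced by TGF-beta and limits the access of Smad2 and Smad3 to the receptor, was at 22.5, 19 and 27.1 CPM in db/m mice, 15.6, 12.2 and 10.6 in db/db mice and 18.5, 15.1 and 16.6 in db/db-dapa mice. The db/db mice were below the db/m mice without overlap, with a log2 fold change of -0.85 (SE 0.222, edgeR adjusted p = 0.115). DESeq2 gave an adjusted p of 0.0219, with a fold below 2. The db/db-dapa mice were also below the db/m mice without overlap, with a log2 fold change of -0.45 (edgeR adjusted p = 0.288). Between treated and db/db mice the value for Pmepa1 was 0.40 (edgeR adjusted p = 0.854). Smurf1, a ubiquitin ligase that targets receptors and Smads, was at 16.5, 15.7 and 13.3 CPM in db/m mice, 20.1, 21.2 and 24 in db/db and 21.9, 21.9 and 24.8 in db/db-dapa mice. Its log2 fold change was 0.52 (edgeR adjusted p = 0.237) between db/db and db/m and 0.59 (edgeR adjusted p = 0.172) between treated and db/m mice, and in both the groups did not overlap. Grem1, an antagonist of bone morphogenetic proteins, had 1, 0 and 0 counts in db/m mice, 4, 3 and 16 in db/db mice and 6, 2 and 9 in db/db-dapa mice, too few for a fold to be given. Fst, which encodes the activin antagonist follistatin, had at most 10 counts in any mouse.

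The remaining lists held no call. Of the ligands of the superfamily, Bmp4 was at 30.9, 20.1 and 26.2 CPM in db/m mice, 30.3, 49.4 and 41.2 in db/db and 46.0, 38.3 and 49.3 in db/db-dapa mice, and its log2 fold change between treated and db/m mice was 0.79 (edgeR adjusted p = 0.143). Of the genes of latency and activation, Itgb8, a subunit of an integrin that releases active TGF-beta, was at 10.7, 15.5 and 8.66 CPM in db/m mice, 17.3, 18.0 and 147 in db/db and 20.0, 60.5 and 117 in db/db-dapa mice. All diabetic mice were above the db/m mice, and replicate 3 of both diabetic groups was far above the others. The log2 fold change of Itgb8 was 2.41 (SE 0.828, edgeR adjusted p = 0.233) between db/db and db/m mice and 2.49 (SE 0.828, edgeR adjusted p = 0.194) between treated and db/m mice. Without db/db replicate 3, the first of these was 0.59. Of the other Smads, Smad5, which transduces the signals of bone morphogenetic proteins, had a log2 fold change of 0.60 (edgeR adjusted p = 0.254) between treated and db/m mice.

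Of the 15 response genes, 0 were called in any comparison. Bhlhe40, a transcription factor, was at 166, 264 and 225 CPM in db/db mice and 148, 133 and 97.6 in db/db-dapa mice, a log2 fold change of -0.79 (SE 0.245, edgeR adjusted p = 0.854). Klf10, an early gene of the TGF-beta response, was at 38.4, 70.4 and 46.6 CPM in db/db and 32.1, 27.2 and 26.8 in db/db-dapa mice, a log2 fold change of -0.86 (SE 0.354, edgeR adjusted p = 0.854). Both are also known as genes that respond quickly to stress, and the immediate-early genes of the handling list summed to 2588, 7244 and 4253 CPM in db/db and 5640, 4109 and 3321 in db/db-dapa mice. Their part in these levels was not tested.

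Among matrix and myofibroblast genes, Col4a1 and Col4a2, which encode the main collagen of basement membranes, had the smallest p between treated and db/m mice. Col4a2 was at 90.9, 106 and 73.3 CPM in db/m mice, 148, 101 and 176 in db/db mice and 163, 189 and 157 in db/db-dapa mice. The treated mice were above the db/m mice without overlap, with a log2 fold change of 0.91 (SE 0.223, 95% interval 0.42 to 1.40, edgeR adjusted p = 0.112). Between db/db and db/m mice it was 0.65 (SE 0.223, edgeR adjusted p = 0.232). Col4a1 was at 124, 155 and 81.3 CPM in db/m mice, 195, 129 and 179 in db/db mice and 198, 235 and 179 in db/db-dapa mice, and its log2 fold change between treated and db/m mice was 0.76 (edgeR adjusted p = 0.183). Spp1, which encodes osteopontin, was at 783, 789 and 587 CPM in db/m mice, 1836, 1416 and 773 in db/db and 1307, 1354 and 950 in db/db-dapa mice. The log2 fold change of Spp1 between db/db and db/m mice was 0.90 (SE 0.289, edgeR adjusted p = 0.207) and 1.17 without db/db replicate 3, with an edgeR adjusted p of 0.0248. The part of the proximal tubule markers in the differences of Col4a1, Col4a2 and Spp1 from db/m mice was not tested. At an unadjusted p under 0.05, 3 genes of the list were higher and 2 lower in treated than in db/m mice. The lower ones, named after their values were seen, were Tagln and Acta2, which encode contractile proteins of smooth muscle and myofibroblasts. Tagln was at 13.5, 8.03 and 12.9 CPM in db/m mice, 11.9, 7.20 and 3.03 in db/db mice and 5.96, 4.46 and 2.71 in db/db-dapa mice. Acta2 was at 15, 11.3 and 17.3 CPM in db/m mice, 12.9, 14.8 and 4.17 in db/db mice and 9.80, 3.15 and 1.70 in db/db-dapa mice. For both, the treated mice lay below the db/m mice without overlap. The log2 fold change between treated and db/m mice was -1.40 for Tagln (SE 0.462, edgeR adjusted p = 0.194) and -1.59 for Acta2 (SE 0.587, edgeR adjusted p = 0.218). DESeq2 called Tagln (adjusted p = 0.073). The part of cells other than those of the proximal tubule in the levels of Tagln and Acta2 was not tested. The list as a whole had medians of 0.14, -0.18 and -0.23 in the 3 comparisons.

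**Figure D5:**
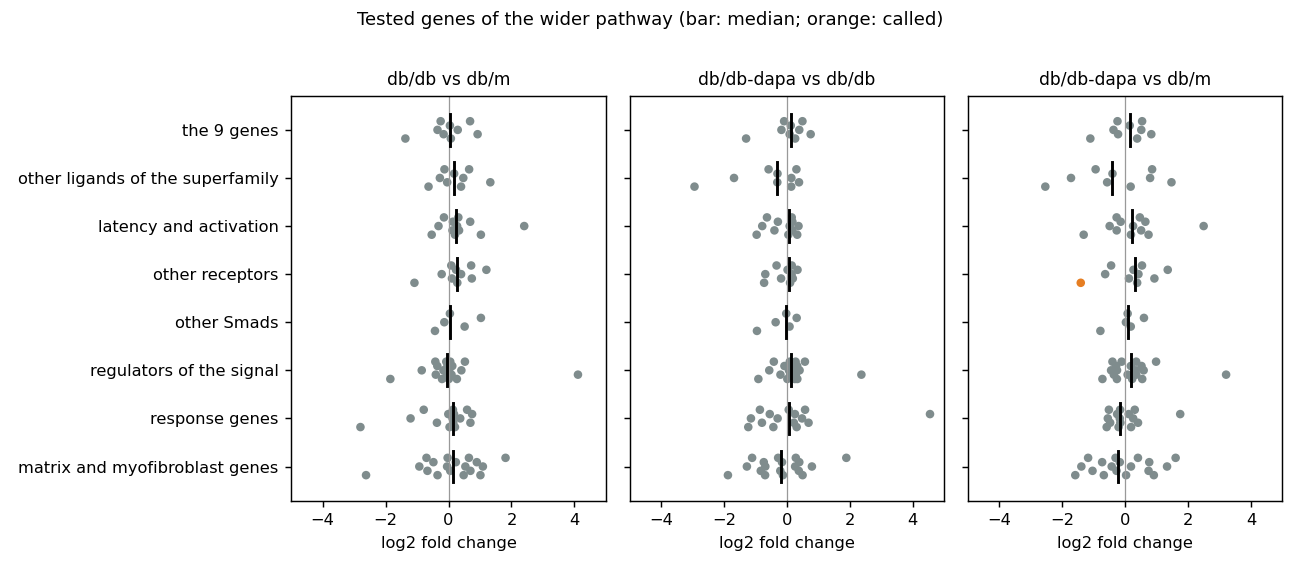
Log2 fold change (horizontal axis) of the 9 genes and of the 88 tested genes of the 7 pathway lists in the 3 comparisons; each point is a gene, the black bar is the median of the list, and orange marks the gene that was called, Acvr2b. Points beyond 2 in either direction are mostly genes with few counts, whose fitted values depend on the fit. The medians lie between -0.41 and 0.32.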

How the data were processed

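The authors sequenced sorted cells of the proximal tubule, 3 mice per group, as 101-base single reads from stranded poly(A) libraries, mapped to mm10 with TopHat2 2.0.13 and Bowtie2 2.2.3 and quantified with Cufflinks 2.2.1, per the methods and the processing notes (which also name SAMtools 0.1.19). Each library came from 1 mouse. The deposited table is named FPKM, but 90.95% of its values are whole numbers and its columns sum to 2733349 to 9033123, so the deposited values were taken as estimated counts. How they were made, and whether strand was used, is not given in the sources used here. All 24421 rows carry a name, 2 names are listed more than once, and 0 columns of samples were left unused.

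Values were rounded to whole numbers, and 15583 genes at 0.3 CPM or more in at least 2 mice were tested over all 9 mice with edgeR 4.0.16 (quasi-likelihood test in its earlier form, TMM scaling) in R 4.3.3, with limma 3.58.1 and DESeq2 1.42.0 among the alternatives. Standard errors were derived from the F values. CPM values are of the TMM-scaled libraries. Tests were checked on simulated data. Intervals and floors cover counting error or the spread between these mice only.

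The 9 genes, the pathway lists and the marker lists were chosen with earlier results of these data known. Of the pathway lists the text names genes that were called or had an adjusted p under 0.1, and otherwise at most the 2 with the smallest p of a list in a comparison. Inhba, Timp1, Postn, Nphs1, Adgre1, Cspg4, Dcn, Tagln and Acta2 were named after their values were seen. Some genes that these rules set are not reported here. Annotation was GENCODE's of GRCm38, where all 9 genes were found, 1 of them under another name, and promoter windows came from RefSeq, which held 6 of the 9; Smad2, Smad7 and Ctgf were not shown.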

Additional observations from a re-analysis of the deposited data

How the results depend on the processing

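With 3 mice per group, the 95% intervals of Tgfb1, Tgfb2, Tgfbr2, Smad3, Ctgf and Tgfbi reached beyond a 2-fold change in at least 1 comparison, whereas those of Tgfbr1, Smad2 and Smad7 stayed within 2-fold. The alternatives were DESeq2, limma at pseudocounts of 1 and 0.1, limma with weights per mouse, other scalings and filters, only the 2 groups compared, a replicate block, each mouse left out and, chosen after the data were seen, edgeR's newer test. Scaling to library totals moved the median log2 fold change over all genes, db/db against db/m mice, from 0.02 to 0.125. The causes of the following changes were not tested. Of the 9 genes, 1 (Tgfb2) was called between treated and db/m mice with weights per mouse and 1 (Tgfbr2) between treated and db/db mice without db/db replicate 3 (with single mice left out, 0 to 1), where 10.4% and 1.75% of all genes were called. Differences among the 3 groups were found for 4 of the 9 with weights and for 2 without db/db replicate 3 (0 to 2), where 30.2% and 9.81% of all genes had an adjusted p under 0.1. Pathway genes called between db/db and db/m mice numbered 1 with DESeq2, with limma at 0.1 and with library totals (0 to 1 with mice left out), and between treated and db/db mice 2 with weights (2.88% of all genes). Between treated and db/m mice they numbered 3 with DESeq2, 0 with limma at either pseudocount, 4 with only the 2 groups (4.15% of all genes), 9 with weights (10.4%) and 0 to 5 with mice left out.

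The direction of the log2 fold change turned in these results, none of which was called. Between db/db and db/m mice, Ctgf was -0.060 and -0.075 with limma at pseudocounts of 1 and 0.1 and -0.43 to 0.48 with mice left out, Tgfbr2 was -0.043 and -0.044 with limma, -0.40 with weights and -0.49 to 0.24 with mice left out, and Tgfb1 was 0.12 with weights and -0.46 to 0.28 with mice left out. Between treated and db/db mice, Ctgf was -0.34 and Smad3 0.0051 with weights, and with mice left out Ctgf was -0.72 to 1.26, Tgfb1 -0.74 to 0.34, Tgfb2 -0.12 to 0.53 and Tgfbr1 -0.034 to 0.33. Between treated and db/m mice, Ctgf was -0.041 with weights and -0.65 to 1.30 with mice left out, Tgfb1 -0.90 to 0.18 and Tgfbi -0.78 to 0.022. Counts of calls over all genes, 197, 0 and 164, were 363, 13 and 507 with DESeq2, 262, 449 and 1619 with weights, 114, 0 and 626 with only the 2 groups, and 235, 0 and 275 without a filter; with mice left out they ranged from 84 to 230, from 0 to 272 and from 14 to 662.

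Not every pair of same-numbered mice deviated together (correlations of -0.323 to 0.563; those of replicates 1 and 3 between treated and db/db mice were 0.402 and 0.563, and 4 of the 9 mice correlated best with their own number), so the numbers were not taken as pairs. With the replicate block, calls over all genes were 185, 0 and 166, those among the 9 genes stayed at 0, pathway calls between treated and db/m mice went from 1 to 0, and Ctgf and Tgfbr2 were -0.25 and -0.026 between db/db and db/m mice.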
